A study of Homo sapiens with 12 samples.

Results

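Transcript levels of 2 untreated human cancer lines were compared: 23132/87, an established gastric adenocarcinoma line, and SW48, an established colorectal adenocarcinoma line. Only vehicle cultures were used, 3 biological replicates per line (6 of the 12 samples of the series), and each had received 0.1% DMSO for 48 h. The 6 samples that received myricone C, a neolignan, were left out. Both lines are labelled as wild type, grew in RPMI-1640 with serum and were sequenced from stranded mRNA libraries. Of 11070 genes listed for 23132/87 and 11554 listed for SW48, 10264 share a symbol and were compared, while 806 were listed for 23132/87 only and 1290 for SW48 only. Each tissue is represented by 1 line, so the values describe these lines and not gastric against colorectal tumours. Line, deposited table and any handling specific to a line coincide and cannot be told apart.

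The stomach and the colon are both lined by epithelium that descends from the gut endoderm, with keratin filaments and tight junctions in each. Gastric surface cells make trefoil factors and gastric mucins. Intestinal cells depend on the homeobox factor CDX2, and crypt cells on WNT signalling, in which beta-catenin turns on feedback genes such as AXIN2. The HOX clusters encode factors that mark position along the body axis. Cancer lines often keep part of the programme of their tissue, and their gene dosage can differ by whole chromosome arms.

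The deposited values resemble FPKM or TPM, that is, they appear scaled to library size and gene length, although the sources used here do not name the unit. The listed values of a sample sum to between 509551 and 536594, and read depth is unknown. Pearson's r across genes was between 0.981 and 0.991 for samples of the same line and between 0.869 and 0.882 for samples of different lines, as a description of genes that are not independent. Mitochondrial pseudogenes, which can share reads with mitochondrial transcripts, took 13.4% to 15.6% of the summed values in 23132/87 and 16.6% to 18.1% in SW48. The cell type labels were checked with marker lists. None of 19 mesenchymal, 16 leukocyte or 10 MHC class II genes was listed in both lines, and those listed in 1 line were low, with COL1A1 at 13.5, 11.9 and 9.39 and CD68 at 6.17, 6.48 and 3.95 in 23132/87 and ACTA2 at 8.86, 7.02 and 7.81 in SW48. Of 8 endothelial markers, EGFL7 was called higher in SW48 (12.1 ± 2.29 in 23132/87 and 24.9 ± 2.27 in SW48, mean ± SD, n = 3), and ESAM was listed for SW48 only at 2.34.

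Most genes tested differed between the lines. limma on log2(value + 1) called 5804 of the 10264 genes at an adjusted p under 0.05, 56.5% of those tested. Of these, 3100 (30.2%) were higher in SW48 and 2704 (26.3%) higher in 23132/87. Fewer genes, 1512 or 14.7%, were both called and apart by at least 1 on the log2 scale, and 243 were apart by at least 2. The median difference over all genes tested was 0.04 (SW48 minus 23132/87), which is the level against which the gene groups are read. Some counts are also given with a stricter filter, which keeps genes of at least 10 in at least 3 of the 6 samples. With so many genes called, a call alone says little about a gene, so the sizes are given beside it, and a gene group in which about 30.2% and 26.3% of members were called in the 2 directions is like the whole table. Where values are set against each other, those of 23132/87 come first and those of SW48 second. Each difference is given with its standard error (SE) from limma, and each mean with the SD of 3 samples. The 3 samples of one line lay wholly above or below the 3 of the other in 6428 genes (62.6%). Of the 131 called genes that the naming rule picked, this held for 128, the exceptions being ALDH3A1, B4GALNT3 and CDKN1A. The rule picks called genes mostly by their large differences, so that count is no separate result. In bulk RNA, fewer cells that express a gene and less RNA per cell cannot be told apart.

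FXYD3, a small regulator of the sodium pump, had the largest difference of the genes higher in 23132/87. Its values were 1085, 862 and 831 in the 3 samples of 23132/87 and 10.9, 6.93 and 6.91 in those of SW48, a difference of 6.67 ± 0.16 on the log2 scale (adjusted p = 1.22e-10), and the gene lies at chr19:35115879-35124324 in GRCh38. ATP1B1, the beta subunit of the same pump, was also among the 12 genes with the largest differences in this direction, at 729.9, 1051 and 1058 against 42.1, 43 and 48.1, a difference of 4.36 ± 0.14. The calcium-binding protein TESC read 319.9, 329 and 299 in 23132/87 and 2.79, 3.01 and 2.84 in SW48. ALDH1A1, which oxidises retinal to retinoic acid, read 361, 386 and 379 against 5.72, 4.19 and 4.302. The other 8 were S100A14, CEACAM5, CLDN4, PRODH, CDH17, CA2, PLAAT3 and TSPAN8, with differences between 4.30 and 6.05. They include proteins of the epithelial surface and junctions, namely carcinoembryonic antigen, claudin 4, the liver-intestine cadherin and a tetraspanin. In none of the 12 genes did a sample of one line reach the range of the other. In the annotation PRODH, ATP1B1 and TSPAN8 overlap the listed or annotated genes DGCR6, NME7 and LGR5, with which reads can be shared.

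AXIN2, the scaffold that limits WNT signalling and is itself a WNT target, had the largest difference of the genes higher in SW48. It read 1.97, 3.52 and 2.52 in 23132/87 and 181, 251 and 178 in SW48, a difference of 5.80 ± 0.17 (adjusted p = 5.98e-10), at chr17:65528563-65561647. BAMBI, a decoy receptor that damps BMP and TGF-beta signalling, read 20.3, 23.9 and 17.1 against 451, 492 and 452, a difference of 4.45 ± 0.12. BMP4, a ligand of the same pathway, read 30.9, 42.97 and 36.1 against 479.7, 348 and 476, a difference of 3.53 ± 0.15. These 3 genes of developmental signalling stood beside 3 actin regulators. PFN2, a profilin that supplies actin monomers, read 7.19, 7.06 and 7.32 against 181, 169 and 189.5. FSCN1, which bundles actin filaments, read 2.54, 4.64 and 3.67 against 90.02, 63.1 and 63.01, and FLNA, which crosslinks them, read 11.5, 9.72 and 7.14 against 167, 117 and 116. The other 6 were EGR1, S100A2, SH3BGRL, MXRA7, ECI2 and MGST1, with differences between 3.66 and 4.62. The samples of the 2 lines did not overlap in any of these 12 genes either.

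**Figure D1:**
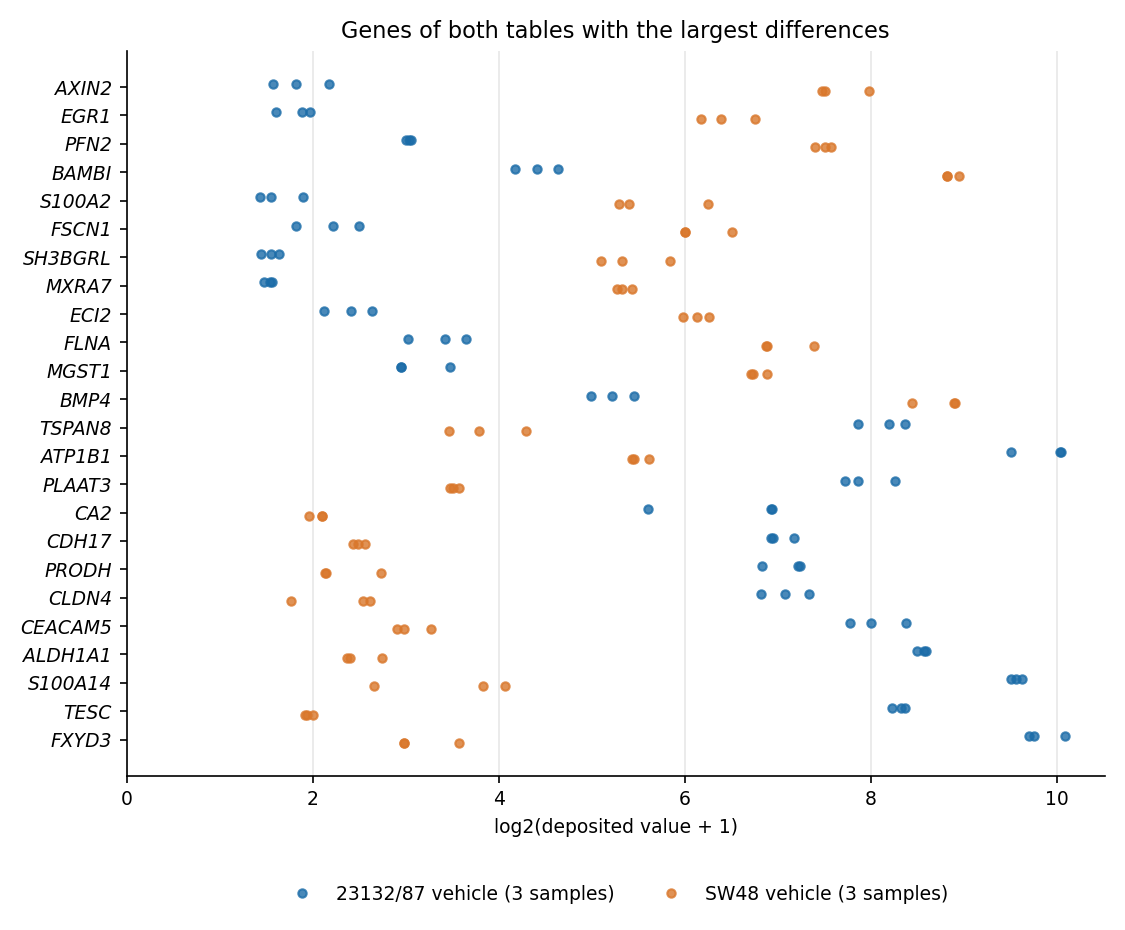
Values of the 12 genes with the largest called difference in each direction, among genes listed in both tables with a vehicle mean of at least 10 in the higher line. The x axis is log2 of the deposited value plus 1, each point is 1 sample (3 per line), and in all 24 genes the blue points (23132/87) and the orange points (SW48) are separate.

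A gene listed for 1 line only has no difference to test. Each table holds only genes at about 1 or above in all 6 samples of that line, treated ones included, so a gene that is not listed for a line has no known vehicle value there, and being unlisted does not show that it was low in vehicle. Most genes listed in 1 table were low: the median vehicle mean was 3.86 for 23132/87 and 3.49 for SW48, against 13.7 and 13.8 for genes in both. A vehicle mean of at least 10 was reached by 187 genes for 23132/87 only and 205 for SW48 only, and one of at least 100 by 29 and 11. The genes listed for 1 line only made up 3.03% to 3.54% of the summed values in 23132/87 and 1.97% to 2.21% in SW48.

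The highest of the genes listed for 23132/87 only was S100P, a calcium-binding protein, at 3504, 3381 and 2951 in the 3 samples (chr4:6693069-6697170). GPX2, the gastrointestinal glutathione peroxidase, followed at 992, 994 and 1082, and AGR2, a protein disulfide isomerase of mucus-secreting cells, at 432, 579 and 750.4. The next were LGALS1 (mean 586), AQP3 (463), KRT7 (336), PSCA (298), KRT17 (295), WFDC21P (292), TFF1 (292), MUC13 (276) and AKR1C2 (256), which include a water channel, 2 keratins, a trefoil peptide and a membrane mucin. The samples of 23132/87 were not even for all of them, since KRT17 read 550.2, 207 and 127 and PSCA 451, 292 and 149.9.

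Of the genes listed for SW48 only, the highest was CD36, a receptor that takes up fatty acids, at 819, 985 and 923 (chr7:80369575-80679277). GPR15, a receptor known for homing of lymphocytes to the colon, was next at 377, 600.4 and 441. GNAT3, the taste G protein gustducin, read 239.7, 229 and 215, but its annotated span overlaps that of CD36 on the opposite strand. The libraries were stranded and the strand setting of the counting is not given in the sources used here, so reads of the 2 genes may not be separate. The others were the protease KLK7 (157), HOXB9 (115), HOXB8 (114), the amino acid transporter SLC7A8 (114), DMKN (113), HPGD, which breaks down prostaglandins (108), the WNT inhibitor NOTUM (105), the receptor-like PTK7 (104) and the phosphodiesterase PDE4B (95.5).

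Of 51 markers of gut epithelium, 6 could be tested, 10 were listed for 23132/87 only and 35 were listed for neither line under the symbols used here. Of 21 gastric epithelium markers, 3 were listed for 23132/87 and 0 for SW48: the trefoil peptide TFF1 at 219, 310.5 and 346, the stem cell antigen PSCA at 451, 292 and 149.9 and the calpain CAPN8 at 14.6, 21.8 and 24.7. Of 30 intestinal epithelium markers, 13 were listed for 23132/87 and 6 of these also for SW48. Among these 6, CEACAM5, CDH17, CA2 and TSPAN8 were higher in 23132/87, CDX2 was higher in SW48, and 1 was not called, with a median difference of -4.37. CDH17 and CA2 lie in a stretch of chromosome 8 (80 to 100 Mb) whose genes had a median of -0.52, and among the 4 markers outside such shifted stretches 2 were higher in 23132/87, with a median of -2.11. CDH17 read 144, 123 and 121 in 23132/87 and 4.93, 4.602 and 4.39 in SW48. Villin, an actin-binding protein of microvilli encoded by VIL1, was listed for 23132/87 only at 183, 227 and 182, as were MUC13 (276), PHGR1 (87.9) and 4 others. No intestinal marker of the list was listed for SW48 only. CDX2 itself read 3.94, 5.497 and 4.96 in 23132/87 and 35.5, 38.01 and 28.7 in SW48, a difference of 2.59 ± 0.15 (adjusted p = 7.78e-08), the reverse of CEACAM5, CDH17, CA2 and TSPAN8.

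Among 14 endoderm transcription factors listed in both lines, 8 were higher in 23132/87, 3 were higher in SW48 and 3 were not called, with a median difference of -0.51. HNF4A on chromosome 20 and GRHL2 and ESRP1 on chromosome 8 lie in shifted stretches, and outside these 5 of 11 were higher in 23132/87 and 3 higher in SW48, with a median of -0.21. ELF3, an epithelium-specific ETS factor, read 81.2, 65.8 and 57.8 in 23132/87 and 7.12, 5.47 and 5.88 in SW48. FOXA1, a pioneer factor of endoderm, averaged 38.8 ± 1.195 against 6.13 ± 0.971, and HNF4A, a nuclear receptor of gut and liver epithelium, 32.7 ± 1.5 against 13.2 ± 1.38. The goblet cell factor SPDEF (61.1), FOXA3 (7.49) and GATA6 (3.77) were listed for 23132/87 only. In the other direction, KLF4 averaged 8.86 ± 0.977 in 23132/87 and 47.1 ± 5.79 in SW48, and the NOTCH target HES1 7.43 ± 1.19 against 28.99 ± 1.27.

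The HOX genes divided by cluster. All 4 HOXA genes and all 4 HOXB genes listed in both lines were called higher in SW48, and all 3 HOXC genes were called higher in 23132/87. HOXA9 read 11.6, 14.1 and 15.9 in 23132/87 and 83.1, 117 and 87.1 in SW48, a difference of 2.69 ± 0.15. HOXB6 read 5.63, 5.095 and 4.08 against 47.2, 60.2 and 40.7, a difference of 3.08 ± 0.16. HOXC10 was the reverse, at 93.1, 69.5 and 70.1 in 23132/87 and 7.09, 9.603 and 8.07 in SW48, a difference of 3.08 ± 0.14 (adjusted p = 1.56e-08), and HOXC4 averaged 11.6 ± 1.24 against 2.47 ± 0.634. A further 13 HOX genes were listed for SW48 only, all of the A, B and D clusters, led by HOXB9 (104, 129 and 112) and HOXB8 (113, 122 and 105). The 3 listed for 23132/87 only were of the C cluster: HOXC8 (5.47), HOXC11 (4.74) and HOXC9 (3.74). In the annotation several neighbours of a cluster overlap on the same strand, so their reads can be shared. Examples are HOXA9 with HOXA10, HOXB3 with HOXB5 and HOXB6, HOXB7 with HOXB8 and HOXB9, and HOXC6 with HOXC4. The genes of a cluster are therefore not all separate readings. The 12 other HOX genes of the list were listed for neither line under the symbols used here.

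**Figure D2:**
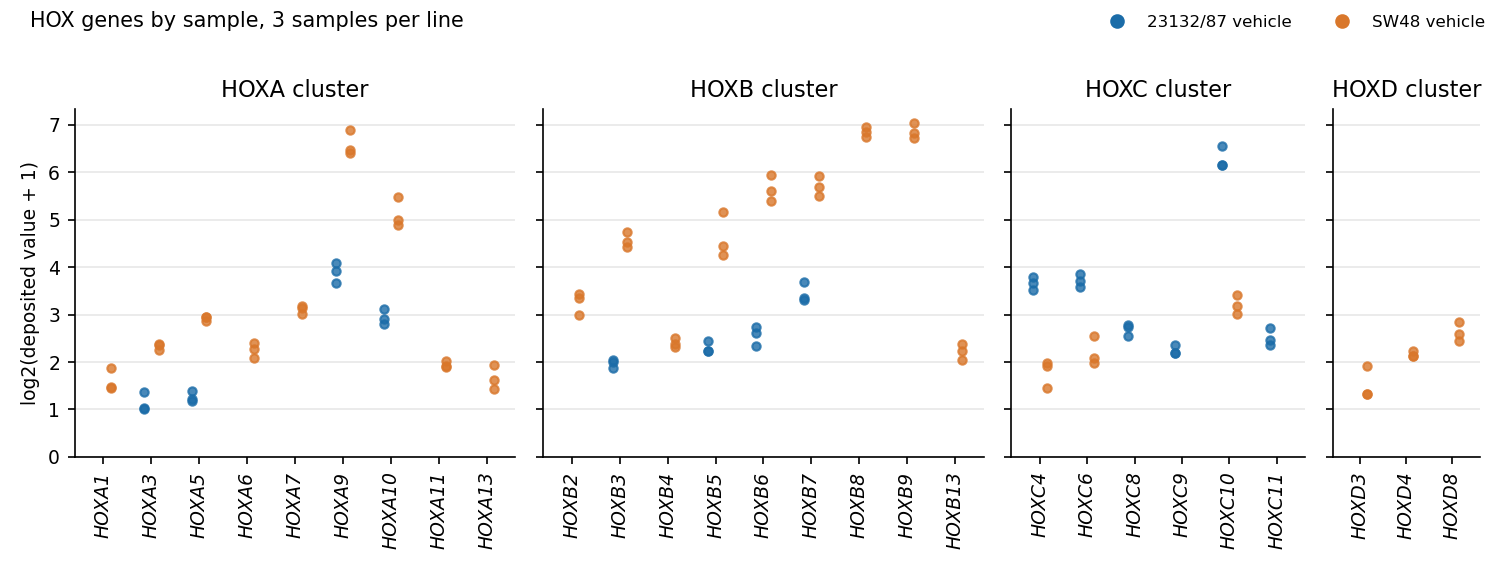
Values of the 27 listed HOX genes, arranged by cluster and number. The y axis is log2 of the deposited value plus 1 and each point is 1 sample. Genes with points of 1 colour only were listed for that line only, and the A, B and D clusters are higher or listed only in SW48 while the C cluster is higher or listed only in 23132/87.

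Of 12 WNT target and feedback genes listed in both lines, 6 were higher in SW48 and 2 were higher in 23132/87 (16.7%, with 26.3% of all genes in that direction and 30.2% in the other), and 4 were not called, with a median difference of 0.51. After AXIN2 the largest was RNF43, a ligase that removes WNT receptors, at 23.2, 19.5 and 20.2 in 23132/87 and 55.8, 58.02 and 43.2 in SW48. MYC, a growth-promoting transcription factor, averaged 47.1 ± 2.43 against 77.4 ± 13.8, a difference of 0.69 ± 0.13. A further 5 were listed for SW48 only, among them NOTUM (84.5, 166 and 63.8), TCF7 (20.1, 18.01 and 19.4) and EPHB2 (12.3, 9.7 and 10.3), and none for 23132/87 only. The intestinal stem cell receptor LGR5 read 5.59, 5.39 and 5.57 and the transcription factor SP5 9.03, 5.66 and 4.88 in SW48. EPHB3, an ephrin receptor of the crypt, went the other way, at 16.1, 30.5 and 22.8 in 23132/87 and 3.69, 4.79 and 4.37 in SW48. CTNNB1, which encodes beta-catenin itself, averaged 126 ± 5.56 against 106 ± 4.92. That difference of 0.25 ± 0.09 (adjusted p = 0.0336) is on the edge of the test, since the adjusted p was 0.0884 without 23132/87 replicate 1, 0.132 without replicate 2 of that line, and 0.102 and 0.0659 without SW48 replicates 1 and 3. With quantile normalization it was 0.514, and EPHB3 was then the only called member higher in 23132/87. CD44 was not called, and its samples of 23132/87 were uneven at 14.2, 82.6 and 80.96, against 58.4, 53.3 and 62.7 in SW48.

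The promoter of SP5 is shown because a match to the letters bound by TCF factors, the DNA-binding partners of beta-catenin, lies in it. RefSeq promoters (GRCh38.p14, 250 bases before to 50 after the start) matched 10 of the 17 listed WNT genes. These 10 genes have 17 promoters, so a count of genes and a share of promoters are not like measures. CTTTGAT, searched on both strands, was found in the promoter of 1 of these 10, SP5, and in 2.62% of all 35116 promoters. The capitals mark the match in the SP5 promoter, chr2:170715087-170715386, plus strand.
SP5: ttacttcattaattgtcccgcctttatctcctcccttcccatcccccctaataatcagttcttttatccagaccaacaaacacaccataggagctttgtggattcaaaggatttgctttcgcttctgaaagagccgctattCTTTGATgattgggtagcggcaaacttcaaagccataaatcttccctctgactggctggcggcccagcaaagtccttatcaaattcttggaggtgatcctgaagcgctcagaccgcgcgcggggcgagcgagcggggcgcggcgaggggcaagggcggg
A match to letters is a description of the sequence and no measure of binding.

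Genes of BMP and TGF-beta signalling differed in both directions, with 7 of 19 higher in SW48, 6 higher in 23132/87 and a median difference of 0.10. These counts are 36.8% and 31.6%, not far from the 30.2% and 26.3% of all genes. The median lay on either side of 0 when single SW48 samples were left out, at 0.24 without replicate 1 and -0.10 without replicate 2, and was -0.23 with the stricter filter. Beside BMP4 and BAMBI, the ligands TGFB1 (37.3), BMP7 (18.1) and TGFB2 (7.27) were listed for SW48 only, while BMP2 (3.85) and the inhibitory SMAD6 (4.09) were listed for 23132/87 only. ID1, a target of BMP signalling, read 326, 283 and 227 in 23132/87 and 66.7, 89.7 and 46.6 in SW48. SKIL, a repressor of SMAD activity, averaged 12.6 ± 1.901 against 2.31 ± 0.365. BMP4 lies in a stretch of chromosome 14 (40 to 60 Mb) whose genes had a median of 0.60. ID1 lies in a stretch of chromosome 20 (20 to 40 Mb) whose genes had a median of -0.51. Other targets, ID2 (69.01 ± 17.2 against 143 ± 18.4) and the inhibitory SMAD7 (6.39 ± 0.499 against 27.4 ± 2.31), were higher in SW48, as was BMP4. ID3, of the same family as ID1 and ID2, was called higher in 23132/87, with a difference of -1.19. Its stretch of chromosome 1 had a median of 0.03. ID2, ID3 and SMAD7 are named for their values.

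Keratins, the intermediate filaments of epithelium, were higher in 23132/87. Of 5 listed in both lines, 4 were higher there and KRT10 was not called, with a median difference of -2.83. KRT19 read 1166, 948 and 811 in 23132/87 and 117, 60.7 and 90.2 in SW48, a difference of 3.47 ± 0.20. KRT18 read 3443, 3036 and 2668 against 555, 235 and 553, a difference of 2.86 ± 0.26, and SW48 replicate 2 was the lowest of its line in both genes. KRT7 (336), KRT17 (295), KRT15 (11.5) and KRT6B (2.98) were listed for 23132/87 only, and KRT16 for SW48 only at 4.61, 1.47 and 4.79. Some keratins have pseudogene copies with which they can share reads.

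Of 25 cadherin, catenin and tight junction genes in both tables, 14 were higher in 23132/87, 6 were higher in SW48 and 5 were not called, with a median difference of -0.59. Claudin 4 read 161, 134 and 112 in 23132/87 and 5.12, 4.82 and 2.42 in SW48. The junction genes TJP3 (36.9) and CLDN1 (8.16) were listed for 23132/87 only, and CLDN2 (10.1), a pore-forming claudin, for SW48 only. CDH3, placental cadherin, was higher in SW48 (8.17 ± 0.868 in 23132/87 and 31.01 ± 3.33 in SW48), as was the desmosome protein DSP (25.6 ± 4.57 against 65.8 ± 12.1). E-cadherin, encoded by CDH1, read 92.8, 108 and 102 in 23132/87 and 60.9, 89.5 and 54.3 in SW48, a difference of 0.59 ± 0.16 (adjusted p = 0.00721). That call was lost with quantile normalization (adjusted p = 0.0769). EPCAM, an adhesion molecule of nearly all gut epithelium, averaged 247 ± 17.8 against 233 ± 16.5 and was not called (difference -0.08 ± 0.09, adjusted p = 0.478). Integrins, laminins and matrix receptors showed 10 of 19 higher in 23132/87 and 1 higher in SW48, with a median of -0.35. Without 23132/87 replicate 1 or SW48 replicate 2 a further gene was called higher in SW48. The same held with quantile normalization, with a replicate block and after rescaling to one sum without mitochondrial pseudogenes. The 1 called with all samples in the main test was ITGA6, the laminin-binding integrin alpha 6. It read 3.26, 3.98 and 3.98 in 23132/87 and 35.8, 27.1 and 34.9 in SW48. In 23132/87 the syndecan SDC4 (77.7 ± 4.43 against 20.5 ± 1.75) and the laminin chain LAMA5 (48.1 ± 10.5 against 13.5 ± 4.05) had the largest differences. Both lie in shifted stretches of chromosome 20, whose genes had medians of -0.78 and -0.54. Outside shifted stretches 7 of 16 genes of this list were higher in 23132/87 and 1 higher in SW48, with a median of -0.26. COL17A1, a hemidesmosomal collagen, was listed for SW48 only at 35.4.

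The title of the series names the kinase ROCK, which phosphorylates myosin regulators downstream of small GTPases and drives contraction. Of 27 ROCK pathway and actomyosin genes in both tables, 16 were higher in 23132/87, 4 were higher in SW48 and 7 were not called, with a median of -0.49. With the stricter filter 2 were higher in SW48. ROCK1 was one of the 4, at 2.13, 2.46 and 2.78 in 23132/87 and 9.96, 11.5 and 11.6 in SW48, a difference of 1.80 ± 0.13 (adjusted p = 6.25e-07). A pseudogene copy, ROCK1P1, was listed for SW48 only at 4.92, 1.57 and 2.35, and the copies can share reads. ROCK2 read 10.9, 11.6 and 14.8 against 17.7, 14.5 and 15.3, and its difference of 0.33 ± 0.14 did not pass the test (adjusted p = 0.0597). It did pass without 23132/87 replicate 3, the highest of that line, with an adjusted p of 0.0160 and a difference of 0.45. CFL2, a cofilin that severs actin filaments, was also higher in SW48 (7.605 ± 3.09 in 23132/87 and 25.8 ± 4.096 in SW48). RND3, an atypical small GTPase known to inhibit ROCK1, read 22.4, 18.3 and 20.8 in 23132/87 and 3.49, 2.58 and 4.597 in SW48. The myosin light chain MYL12A read 365, 312 and 328 against 83.9, 84.6 and 93. MYL9 (51.6, 21.3 and 13.7), RND1 (14.01) and MYH10 (10.2) were listed for 23132/87 only, so the kinase ROCK1 and most of the actomyosin genes differed in opposite directions.

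Actin cytoskeleton genes and targets of the factor SRF were divided, with 5 of 22 higher in SW48 and 8 higher in 23132/87 (median -0.13). These are 22.7% and 36.4%, beside 30.2% and 26.3% of all genes. FLNA had the largest difference on the SW48 side. The tropomyosin TPM1 was higher in 23132/87 (113 ± 13.98 against 27.6 ± 2.22), and the focal adhesion protein ZYX in SW48 (38.04 ± 5.39 against 81.7 ± 5.76). CALD1 (13.3) and TPM2 (8.67) were listed for SW48 only. In the YAP and TEAD pathway 8 of 17 genes were higher in 23132/87 and 4 higher in SW48 (median -0.23, or -0.51 with the stricter filter). AREG, an EGFR ligand, averaged 152 ± 20.8 in 23132/87 and 31.2 ± 8.68 in SW48, and AJUBA 35.6 ± 0.882 against 14.3 ± 1.98. AMOTL2 was higher in SW48 (9.31 ± 1.23 against 22 ± 2.79), as was SAV1 (7.94 ± 1.48 against 14.5 ± 2.16). CCN2 (14.2), TEAD2 (7.35) and AMOT (7.12) were listed for 23132/87 only, and MOB1B (9.88) and WWTR1 (2.23) for SW48 only.

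EGFR, the receptor of epidermal growth factor, was higher in SW48. It read 5.92, 7.88 and 8.23 in 23132/87 and 80.4, 88.4 and 68.04 in SW48, a difference of 3.26 ± 0.14 (adjusted p = 9.14e-09). Its ligands were divided: AREG and TGFA (difference -0.71) were higher in 23132/87, while EREG (10.7), BTC (7.02) and HBEGF were listed for SW48 only. ERBB2 read 41.4, 41.9 and 32 in 23132/87 and 44.6, 45.3 and 41.2 in SW48 and was not called (difference 0.19 ± 0.12, adjusted p = 0.206). Over the ERBB and EPH families with their ligands, 5 of 15 genes were higher in SW48 and 6 higher in 23132/87 (median -0.03, or 0.14 without SW48 replicate 1 and 0.20 with the stricter filter), and EFNB2 (2.71 ± 0.606 in 23132/87 and 19.6 ± 4.07 in SW48) followed EGFR in size. Among 9 other receptor tyrosine kinases in both tables, 3 (33.3%) were higher in each line. Of all genes, 30.2% were higher in SW48 and 26.3% in 23132/87. The median of these kinases was 0.14, or -0.38 with the stricter filter and -0.05 with quantile normalization. FGFR4 averaged 59.02 ± 7.75 in 23132/87 and 9.92 ± 1.698 in SW48, and MST1R, the receptor RON, 41.1 ± 4.33 against 9.7 ± 1.37. TYRO3 (3.85 ± 0.745 against 12.1 ± 1.597) and the insulin receptor INSR (2.08 ± 0.331 against 4.89 ± 0.516) were higher in SW48, and PTK7 (108, 115 and 87.4), FGFR2 (6.22) and ROR2 (2.98) were listed for SW48 only. MET, the receptor of hepatocyte growth factor, read 14.7, 13.1 and 17.2 against 12.2, 10.9 and 13.2 and was not called (difference -0.28 ± 0.13, adjusted p = 0.0921), although it passed with the replicate number as a block (adjusted p = 0.0479).

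Genes of cholesterol and fatty acid synthesis were higher in 23132/87 almost throughout. Of 31 in both tables, 27 were higher there (26.3% of all genes tested were called in that direction), 2 were higher in SW48 and 2 were not called, with a median difference of -0.98. SCD, the desaturase that makes oleic acid, read 754, 569.9 and 688 in 23132/87 and 104, 113 and 92.1 in SW48, a difference of 2.69 ± 0.12 (adjusted p = 9.14e-09). SREBF1, which encodes the transcription factor SREBP-1 of lipid synthesis, read 105, 105 and 86.9 against 25.2, 17.5 and 15.03, a difference of 2.33 ± 0.16. The genes of the mevalonate pathway chosen here after their values were seen, HMGCS1 (84.2 ± 11.4 against 26.7 ± 2.03) and SQLE (95.95 ± 15.8 against 33.1 ± 5.88), were both higher in 23132/87. FASN, fatty acid synthase, averaged 161 ± 32.9 against 57.99 ± 10.4. The 2 higher in SW48 were the acyl-CoA synthetase ACSL1 (15.5 ± 0.209 in 23132/87 and 23.9 ± 3.06 in SW48) and TM7SF2 (13.2 ± 1.06 against 18.6 ± 1.11), and CYP51A1 (109 ± 6.08 against 107 ± 11.98) and SC5D (21.4 ± 2.65 against 24.4 ± 3.23) were not called. ACSL5 (9.09), FADS2 (6.94) and FADS1 (1.78) were listed for SW48 only.

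SREBF2, which encodes SREBP-2, the factor of cholesterol synthesis, read 64.3, 63.6 and 53.2 in 23132/87 and 47.3, 49.6 and 40.95 in SW48, a difference of 0.39 ± 0.12. Its promoter is shown because it holds the letters of a sterol regulatory element, the kind of site that SREBP factors are known to bind. RefSeq promoters matched 27 of the 34 listed lipid genes. These 27 genes have 41 promoters, so here too a count of genes and a share of promoters are not like measures. The letters TCACCCCAC, searched on both strands, were found for 2 of these 27, ACSL1 and SREBF2, and in 0.43% of all 35116 promoters. The capitals mark the match in the SREBF2 promoter, chr22:41832855-41833154, plus strand, GRCh38.p14.
SREBF2: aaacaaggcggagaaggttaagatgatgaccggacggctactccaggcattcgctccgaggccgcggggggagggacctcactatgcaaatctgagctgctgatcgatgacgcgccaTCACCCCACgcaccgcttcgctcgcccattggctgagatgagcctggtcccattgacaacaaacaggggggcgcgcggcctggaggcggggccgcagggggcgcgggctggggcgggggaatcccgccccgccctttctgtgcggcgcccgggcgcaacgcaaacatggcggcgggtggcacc
Of the 2 genes with this match, SREBF2 was higher in 23132/87 and ACSL1 was higher in SW48.

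Cytosolic ribosomal proteins showed the opposite direction. Of 33, all listed in both tables, 29 were higher in SW48 (30.2% of all genes tested were called in that direction), 3 were higher in 23132/87 and 1 was not called, with a median difference of 0.53. With quantile normalization the median was 0.30 and 23 were higher in SW48. RPS4X, a protein of the small subunit, read 414, 415 and 445 in 23132/87 and 1204, 1343 and 1389 in SW48, and RPL13 of the large subunit 527, 469 and 386 against 1116, 949 and 889.5. The 3 exceptions were RPL8 (2794, 2463 and 2047 against 1312, 1208 and 1172), RPS27L (180.5 ± 14.5 against 97.5 ± 14.7) and RPL30 (1629 ± 113 against 1188 ± 61.5). RPL8 and RPL30 lie on chromosome 8, in stretches of 20 Mb whose genes had median differences of -0.78 and -0.52, and RPS27L lies on chromosome 15, where the median of its stretch was 0.13. Ribosomal protein genes have many processed pseudogenes, so their reads can be shared with copies, and the part of this in the difference was not tested.

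**Figure D3:**
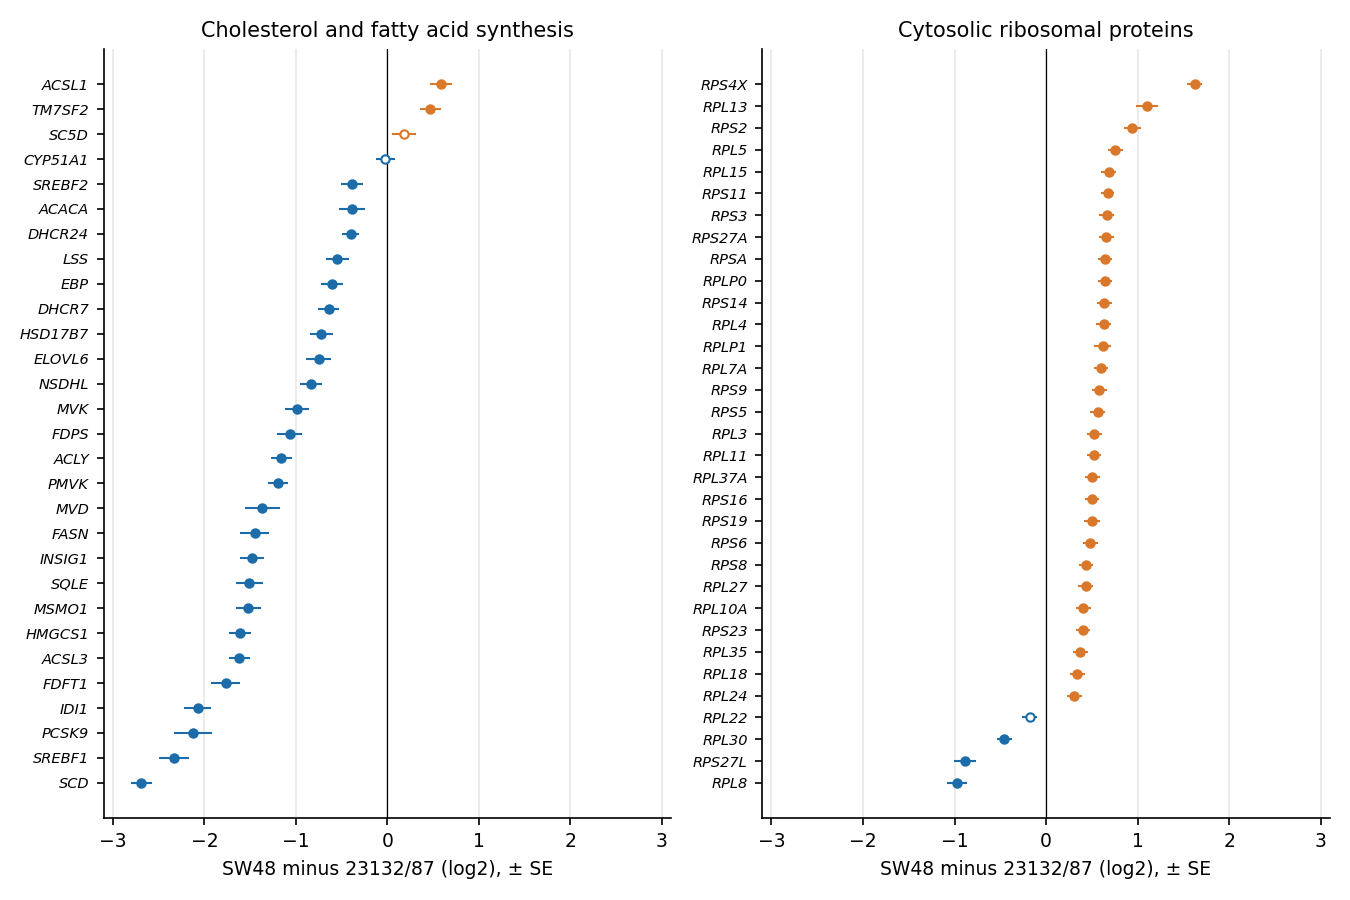
Difference of each member listed in both tables, SW48 minus 23132/87 on the log2(value + 1) scale, for cholesterol and fatty acid synthesis (left, 29 of the 31 genes) and cytosolic ribosomal proteins (right, 33 genes). Bars are limma's standard errors, filled points were called and open points were not, and 25 of the lipid genes shown lie called on the 23132/87 side while 29 of the ribosomal genes lie called on the SW48 side.

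Enzymes that handle foreign compounds and oxidants set the lines apart by single large differences. NQO1, a quinone reductase induced through both AHR and NRF2, read 1954, 1999 and 2256 in 23132/87 and 179, 153 and 194 in SW48, a difference of 3.56 ± 0.10 (adjusted p = 5.01e-10). AHR, the receptor for aromatic compounds, read 28.3, 30.3 and 33.2 against 5.35, 7.27 and 7.13, a difference of 2.07 ± 0.14. Of 7 genes of the AHR pathway in both tables, 3 were higher in each line (median -0.08, or 0.11 without 23132/87 replicate 3 and -0.24 without replicate 1), and CYP1A1, the classical AHR target, was low in both at 2.17, 2.83 and 4.11 against 2.32, 3.28 and 2.71. The repressor AHRR (3.33) was listed for SW48 only and CYP1B1 (3.09) for 23132/87 only. Within the NRF2 target list, 10 of 24 genes were higher in 23132/87 and 4 were higher in SW48 (median -0.13), or 2 without SW48 replicate 1. The cystine transporter SLC7A11 averaged 12.5 ± 3.498 in 23132/87 and 2.49 ± 0.0635 in SW48. The haem oxygenase HMOX1 (2.13 ± 0.367 against 5.45 ± 1.04) and the exporter ABCC1 (9.39 ± 0.607 against 16.7 ± 3.602) were higher in SW48. A further 6 members were listed for 23132/87 only, led by GPX2, AKR1C2 (196, 272 and 299) and AKR1B10 (28, 128 and 91.4), and none for SW48 only. The AKR1C genes are near-identical and can share reads.

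Of 25 aldehyde, alcohol and conjugating enzymes, 12 were higher in 23132/87 and 10 were higher in SW48 (median -0.31). ALDH3B1 (35.7 ± 9.22 against 4.18 ± 0.394) followed ALDH1A1 in 23132/87. MGST1, a membrane glutathione transferase, read 6.71, 6.73 and 10.1 in 23132/87 and 104, 106 and 117 in SW48, and the epoxide hydrolase EPHX1 averaged 28.8 ± 9.52 against 105 ± 12.5. ALDH3A1, an aldehyde dehydrogenase, averaged 138 ± 19.1 against 278 ± 126, a difference of 0.88 ± 0.29 (adjusted p = 0.0222). This call was lost when any 1 of 4 samples was left out, with adjusted p values of 0.0553 and 0.0586 without 23132/87 replicates 2 and 3 and of 0.0858 and 0.104 without SW48 replicates 1 and 3. ALDH1A3 (11.6) and GSTM3 (4.91) were listed for 23132/87 only, and UGT8 (22.6), CES3 (8.76) and GSTM2 (2.85) for SW48 only.

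Mucins and the enzymes that glycosylate them were mostly listed for the gastric line. Of 26 listed members, 13 were listed for 23132/87 only and 3 for SW48 only. The mucins MUC13 (276), MUC1 (274, 202 and 184) and MUC5B (166, 209 and 138) led the first group, and the enzymes GALNT6 (7.96) and GCNT1 (3.41) and the mucin MUC20 (2.11) formed the second. Of 10 in both tables, 3 were higher in SW48, or 1 with quantile normalization and 0 with the stricter filter, and 5 were higher in 23132/87. The median was -0.31, or -1.17 with the stricter filter. Those higher in 23132/87 included the sialyltransferase ST3GAL4 (85.5 ± 15.9 against 5.98 ± 0.985) and GALNT7 (95.6 ± 7.804 against 11.1 ± 0.627), which starts O-glycan chains. B3GNT5 (3.47 ± 0.721 in 23132/87 and 7.17 ± 1.06 in SW48) and B4GALNT3 (5.95 ± 1.81 against 8.62 ± 1.07) were higher in SW48. The call for B4GALNT3 (difference 0.49 ± 0.18, adjusted p = 0.0352) was lost without 23132/87 replicates 2 or 3 (adjusted p = 0.0789 and 0.137, with differences of 0.48 and 0.31), without SW48 replicates 1 or 2 (adjusted p = 0.108 and 0.0626) and with quantile normalization (adjusted p = 0.0952).

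The unfolded protein and integrated stress responses, which slow translation and raise chaperones when the ER is loaded, had 11 of 31 genes higher in SW48 and 8 higher in 23132/87 (median 0.03). These shares, 35.5% and 25.8%, are near the 30.2% and 26.3% of all genes, so the list as a whole is like the whole table. DDIT4, an inhibitor of mTOR complex 1, read 89.3, 95.6 and 91.05 in 23132/87 and 12.2, 13.8 and 11.9 in SW48. XBP1, a transcription factor of the ER, read 196, 243 and 284 against 31.4, 41.9 and 32.2, a difference of 2.74 ± 0.15. ATF4, the central factor of the integrated stress response, was also higher in 23132/87 at 192, 199.8 and 223 against 133, 130.3 and 127. The ER chaperone HSPA5 was higher in SW48 (239, 239 and 239.7 in 23132/87 and 324, 398 and 325 in SW48), as was DDIT3, which encodes CHOP (3.895, 7.08 and 4.26 against 9.52, 9.25 and 8.92). The amino acid transporter subunit SLC3A2 (88.9 ± 5.59 against 179 ± 6.095) and CREB3L2 (10.9 ± 1.22 against 21.5 ± 3.63) had the largest differences on the SW48 side. CREB3L1 (10.4) and ATF3 (4.45) were listed for 23132/87 only, and the serine synthesis enzyme PHGDH (38.2) for SW48 only. In the annotation DDIT3 overlaps other listed genes on the opposite strand.

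Antigen presentation differed most in its shared light chain. B2M, beta-2 microglobulin, read 1013, 854 and 824 in 23132/87 and 145, 183 and 171 in SW48, a difference of 2.43 ± 0.11 (adjusted p = 1.27e-08). The heavy chains HLA-B (264 ± 90.5 against 215 ± 13.4) and HLA-C (228 ± 65.5 against 261 ± 1.897) were not called, with adjusted p values of 0.32 and 0.236. These genes are close copies of each other and vary between people, so their reads can be shared or lost. Of 20 genes of the list, 6 were higher in SW48, led by ERAP2 (5.42 ± 0.344 against 10.9 ± 0.719) and PSME1 (71.03 ± 2.5 against 122 ± 3.803), and 4 were higher in 23132/87, with the peptide-loading protein TAPBP (72.9 ± 6.82 against 27.2 ± 5.28) after B2M. The median was 0.07, and the shares were 30.0% and 20.0%, beside 30.2% and 26.3% of all genes. Of the MHC class II list only HLA-DMA was listed, for 23132/87 at 6.57.

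Among 25 interferon genes in both tables, 6 were higher in SW48, 4 were higher in 23132/87 and 15 were not called (median 0.04), and 10 of 25 is below the 56.5% of all genes. With the stricter filter 2 were higher in SW48 and the median was -0.13. IFITM3, an antiviral membrane protein, read 15.5, 38.7 and 33.9 in 23132/87 and 289, 228 and 223 in SW48, and the receptor chain IFNAR2 averaged 2.95 ± 0.945 against 12.01 ± 0.0672. STAT3 (36.1 ± 3.64 against 14.1 ± 1.29) and OAS3 (40.7 ± 1.85 against 17.3 ± 1.46) had the largest differences on the side of 23132/87. BST2, or tetherin, at 245, 231 and 210.2 and OAS1 at 205, 187 and 179 were listed for 23132/87 only with IFI27 (18.9), while MX1 (3.79), IFITM1 (1.78) and IFIT1 (1.46) were listed for SW48 only. 

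Cancer-testis antigens, germline genes that some tumours switch on, were listed mainly for the gastric line. Of 31 on the list, 15 were listed for 23132/87 only, 0 for SW48 only, 2 for both, and 14 for neither under the symbols used here. MAGEA4 read 238, 232 and 218, GAGE2A averaged 128 and MAGEA3 69.4. The GAGE, XAGE1, CTAG1 and several MAGEA genes are near-identical copies that share reads, so 15 is a count of listed entries and may be fewer sources. The 2 listed in both lines, MAGED1 (16.2 ± 0.687 in 23132/87 and 48.4 ± 11.1 in SW48) and MAGED2 (17.8 ± 0.821 against 24.3 ± 3.45), are widely expressed relatives and were higher in SW48.

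Most of the DNA replication genes did not pass the test. Of 36 DNA replication genes in both tables, 24 were not called, 7 were higher in SW48 and 5 were higher in 23132/87 (median 0.00). The number higher in SW48 was 11 without SW48 replicate 2 and 12 with quantile normalization. RPA2, which coats single-stranded DNA, averaged 23.5 ± 1.45 in 23132/87 and 52.7 ± 3.44 in SW48, and RFC2 30.8 ± 1.88 against 61.1 ± 8.07. GINS1 (39.4 ± 0.894 against 20.7 ± 1.81) was higher in 23132/87. Of 32 mitosis genes, 12 were higher in 23132/87 and 4 were higher in SW48 (median -0.11), with 2 in SW48 without 23132/87 replicate 2 and a median of -0.23 without SW48 replicate 2. AURKA, a spindle kinase, read 108, 122 and 133 in 23132/87 and 34.03, 43.5 and 39.3 in SW48, and the kinetochore gene NUF2 averaged 42.02 ± 5.61 against 14.6 ± 3.25. BIRC5 (47.1 ± 3.92 against 63.4 ± 4.69) and BUB1B (29.7 ± 1.82 against 39.8 ± 1.66) were higher in SW48. The 3 mitosis genes on chromosome 20, AURKA, UBE2C and TPX2, were all called higher in 23132/87. Outside windows of 20 Mb whose genes as a whole were shifted by at least 0.4, 6 of 26 mitosis genes were higher in 23132/87 and 4 higher in SW48.

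In G1/S control 8 of 27 genes were higher in 23132/87 and 7 higher in SW48 (median -0.01), or 4 without SW48 replicate 3. With all samples these were 29.6% and 25.9%, near the 26.3% and 30.2% of all genes in those directions. MYBL2, a transcription factor of cell cycle genes that is encoded on chromosome 20, read 90.3, 92.8 and 81.1 in 23132/87 and 15.1, 11.7 and 13.3 in SW48, a difference of 2.64 ± 0.12. CDK6 averaged 22.9 ± 4.96 against 3.58 ± 0.834. CCND2 (26.03) was listed for SW48 only and the CDK inhibitor gene CDKN2A (5.04) for 23132/87 only. CDKN1A, the p53 target p21, averaged 49.8 ± 12.6 against 106 ± 50.5, and its SW48 samples were uneven at 125, 48.5 and 144. Its call (difference 0.96 ± 0.32, adjusted p = 0.0235) was lost without 23132/87 replicate 3 (adjusted p = 0.0863) and without SW48 replicates 1 or 3 (adjusted p = 0.0826 and 0.111). Over the p53 pathway, 8 of 28 genes were higher in SW48 and 6 higher in 23132/87 (median 0.11), and without SW48 replicate 3 the first count was 5. With all samples the shares were 28.6% and 21.4%, near the 30.2% and 26.3% of all genes. GDF15, a stress-induced cytokine, read 64.5, 78.1 and 64.3 in 23132/87 and 23.5, 5.396 and 18.2 in SW48, and PLK3 averaged 10.05 ± 0.169 against 2.53 ± 0.516. CCNG1 (24.02 ± 3.71 against 67.5 ± 11.05) and BTG2 (5.5 ± 0.6104 against 15.02 ± 3.75) were higher in SW48, and SPATA18 (4.42) was listed for SW48 only.

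Apoptosis genes of the BCL2 and death receptor list were higher in 23132/87 in 14 of 31 cases and higher in SW48 in 6 (median -0.35), or in 3 without SW48 replicate 3. CASP9, the initiator caspase of the mitochondrial pathway, read 26.95, 31.3 and 29.8 in 23132/87 and 4.01, 6.31 and 4.79 in SW48, a difference of 2.35 ± 0.15. The BH3-only gene BIK averaged 13.2 ± 2.87 against 4.79 ± 0.909. FAS, a death receptor, was higher in SW48 (8.27 ± 1.34 in 23132/87 and 13.4 ± 3.41 in SW48), with an adjusted p of 0.0123 that was 0.0532 without 23132/87 replicate 2 and 0.0629 without SW48 replicate 3. PMAIP1, which encodes the BH3-only protein NOXA, was higher in SW48 (3.08 ± 0.108 against 5.27 ± 1.36), a call lost with quantile normalization (adjusted p = 0.0827). BIRC3 (9.09) and RIPK3 (7.94) were listed for 23132/87 only, and BCL2 (3.16) for SW48 only.

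Of 22 glycolysis genes, 5 (22.7%) were higher in each line, below the shares of all genes tested (median -0.15). The glucose transporter SLC2A1 (chosen after its values were seen) read 94.4, 74.5 and 61.1 in 23132/87 and 316, 242 and 267 in SW48, and the lactate transporter SLC16A1 5.75, 10.3 and 11.7 against 45.97, 47.97 and 52.1. ENO2, the neuronal enolase, averaged 13.9 ± 1.48 against 54.2 ± 4.12. LDHA, lactate dehydrogenase, read 614, 779 and 784 in 23132/87 and 336, 245 and 376 in SW48, and PGK1 averaged 217 ± 8.48 against 92.1 ± 13.4. S100 and annexin genes, which encode calcium-binding proteins, were higher in 23132/87 in 11 of 15 cases and higher in SW48 in 3 (median -0.96). S100A14 read 758, 726 and 788 in 23132/87 and 15.7, 5.31 and 13.2 in SW48, and S100A16 averaged 590.0 ± 27.9 against 67.5 ± 15.3. S100A2 (1.93, 2.73 and 1.696 in 23132/87 and 75.3, 41.4 and 38.3 in SW48) and S100A13 (59.8 ± 5.23 against 92.01 ± 12.9) went the other way. These S100A genes lie side by side in a stretch of chromosome 1 (140 to 160 Mb) whose 158 genes had a median difference of -0.63, and of the 8 S100A genes there 6 were higher in 23132/87 and 2 higher in SW48. ANXA13 (11.9) and ANXA9 (4.097) were listed for 23132/87 only, and ANXA6 (25.96) for SW48 only.

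**Figure D4:**
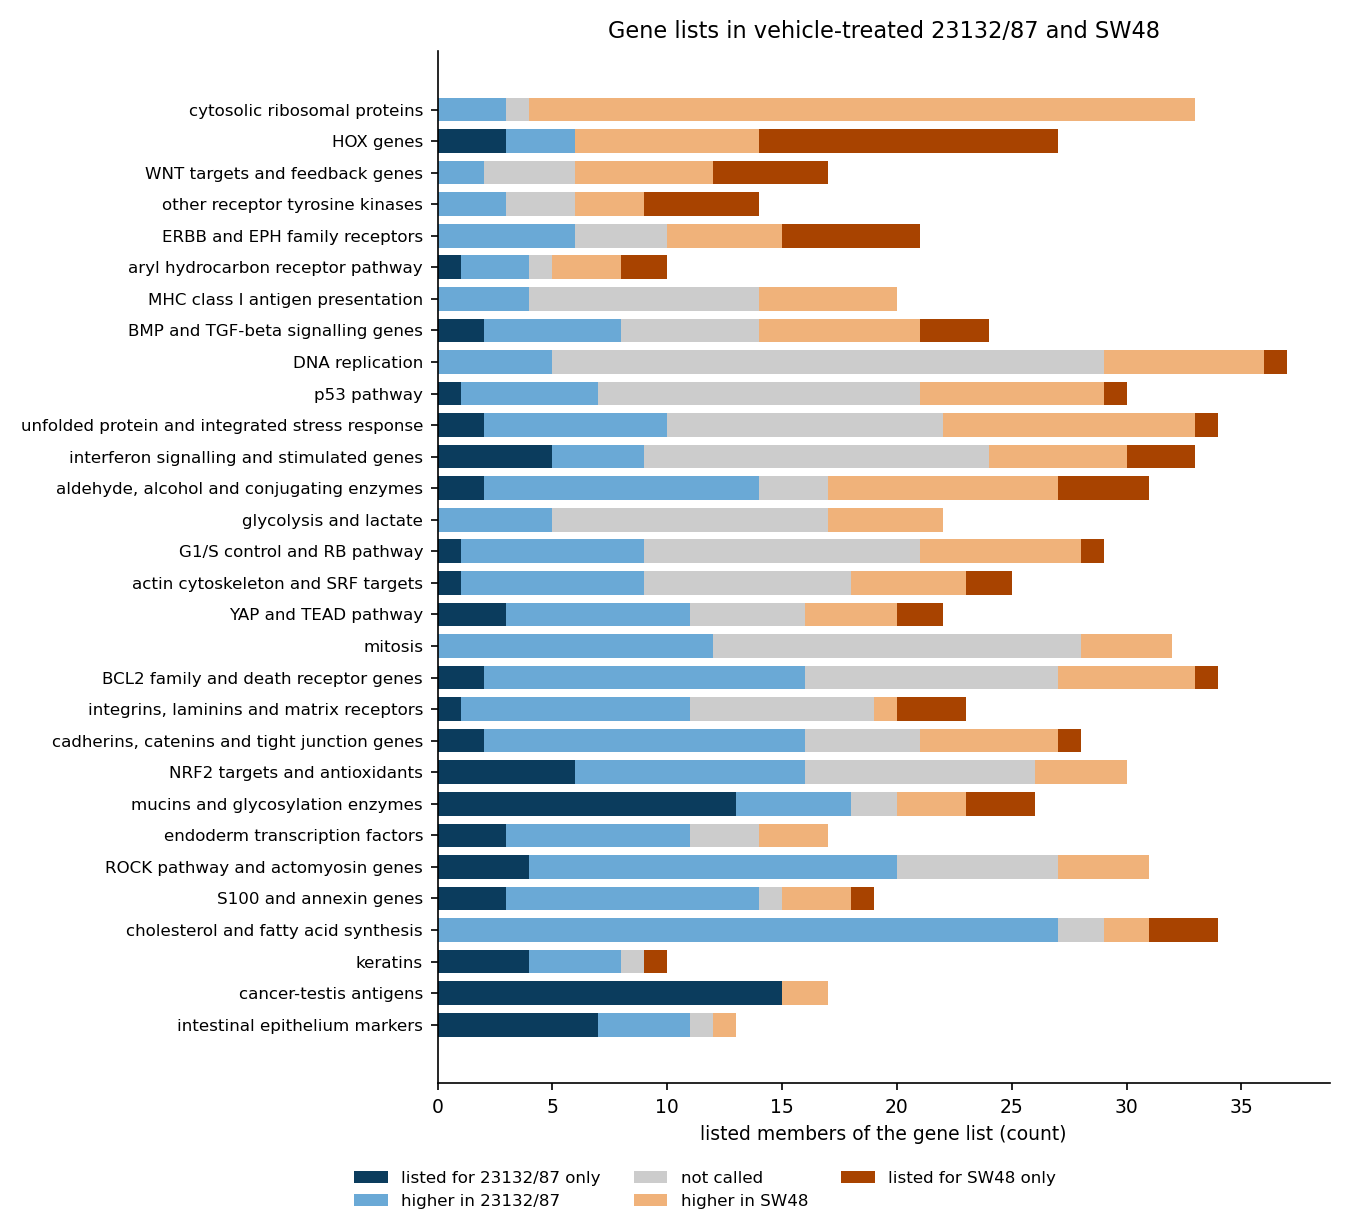
Composition of gene lists with at least 5 listed members, of which not all are shown. Each bar counts the listed members of 1 list, divided into those listed for 23132/87 only, called higher in 23132/87, not called, called higher in SW48 and listed for SW48 only, and the lists are ordered from ribosomal proteins, with 29 of 33 higher in SW48, to intestinal markers, with 11 of 13 higher in or listed only for 23132/87.

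Genes of 4 chromosomes differed together. On chromosome 7 the median difference of 489 genes was 0.58 (SW48 minus 23132/87), and 66.5% were called higher in SW48 and 10.2% higher in 23132/87, against 30.2% and 26.3% of all genes. On chromosome 14 the median of 354 genes was 0.31, and 49.4% were higher in SW48. Chromosome 20 was the reverse, with a median of -0.51 over 283 genes and 60.4% higher in 23132/87. Chromosome 8 had a median of -0.38 over 354 genes and 51.1% higher in 23132/87. The medians of the other autosomes and of chromosome X lay between -0.09 and 0.14, and chromosome Y was left out. Genes listed for SW48 only were also many on chromosome 7, 107 against 19 listed for 23132/87 only, and on chromosome 20 the counts were 12 and 28.

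**Figure D5:**
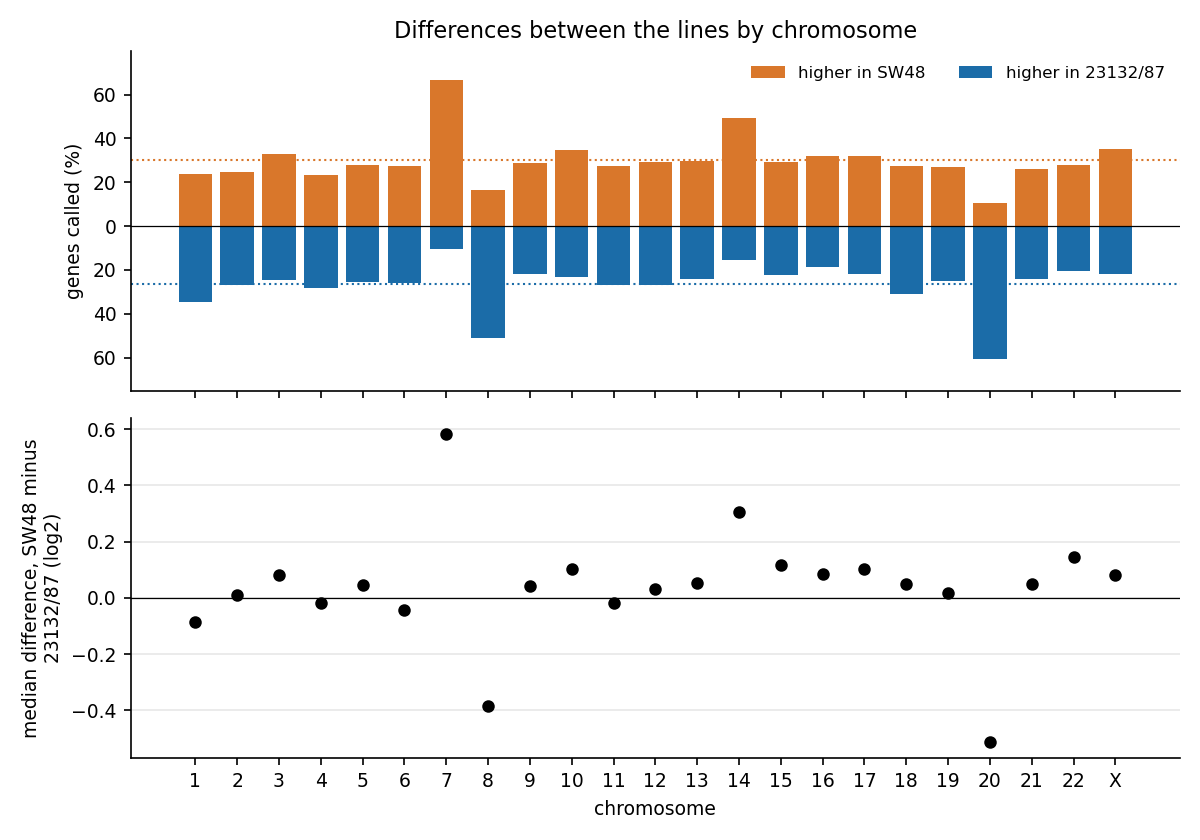
Differences by chromosome. The upper panel gives the percentage of tested genes called higher in SW48 (upward) and in 23132/87 (downward), with dotted lines at 30.2% and 26.3% for all genes, and the lower panel gives the median difference in log2 units. Chromosomes 7 and 14 stand above the others, at 0.58 and 0.31, and chromosomes 8 and 20 below, at -0.38 and -0.51.

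Windows of 20 Mb with at least 20 tested genes, a size chosen after the chromosome values were seen, showed how far these shifts extended. Of 145 windows, 120 had medians within 0.25 of 0, 11 reached 0.4 or more and 9 reached -0.4 or less. All 8 windows of chromosome 7 were among the 11, between 0.44 and 0.72. On chromosome 14 the window from 40 to 60 Mb had a median of 0.60, with 45 of 60 genes higher in SW48 and 1 higher in 23132/87. On chromosome 8 the shift was in the 4 windows beyond 80 Mb, at -0.52, -1.12, -1.12 and -0.78. In the window from 100 to 120 Mb, 88.6% of 35 genes were higher in 23132/87. On chromosome 20 the 3 windows beyond 20 Mb had medians of -0.51, -0.78 and -0.54. Chromosome 1, whose whole median was -0.09, held 2 windows at -0.63 and -0.60, from 140 to 180 Mb. Windows at 60 to 80 Mb of chromosome 10 and at 0 to 20 Mb of chromosome X stood at 0.44 each. What lies behind these shifts was not tested.

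Some of the genes named above lie in these windows and some differ against them. EGFR, FSCN1 and the HOXA genes are on chromosome 7 and BMP4 is on chromosome 14, and they were higher in SW48, as were most of their neighbours. AHR (chr7:16916359-17346152) and CLDN4 (chr7:73799542-73832693) are also on chromosome 7 and were higher in 23132/87 by 2.07 and 4.77. MYC (chr8:127735434-127741434) was higher in SW48 by 0.69 although the median of its window was -1.12. AXIN2 and the HOXB genes on chromosome 17, HOXC10 on chromosome 12, ROCK1 on chromosome 18 and FXYD3 on chromosome 19 lie outside the shifted windows. Without the 1293 genes of the 20 windows at or past 0.4 in either direction (12.6% of the genes tested), 22 of 25 lipid synthesis genes were still higher in 23132/87 with a median of -0.84, and 29 of 31 ribosomal protein genes were higher in SW48. Of 24 ROCK pathway and actomyosin genes outside these windows, 15 were higher in 23132/87, and of 18 junction genes 9 were, with a median of -0.17 instead of -0.59. The HOX genes left were 4 HOXB genes, all higher in SW48, and 3 HOXC genes, all higher in 23132/87. In the ERBB and EPH list 1 of 9 genes was higher in SW48 outside the windows, against 5 of 15 in all. Outside the windows, 5 of 6 S100 and annexin genes were higher in 23132/87 and none in SW48, 4 of 20 G1/S genes were higher in 23132/87 and 6 in SW48, 5 of 17 actin and SRF genes were higher in 23132/87 and 4 in SW48, and 1 of 5 genes of the AHR pathway was higher in 23132/87 and 3 in SW48.

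Some genes varied widely between samples of the same line, and their differences between the lines carry that spread. Over genes with a mean of at least 10, the median coefficient of variation was 8.96% in 23132/87 (6423 genes) and 10.0% in SW48 (6614 genes). The highest sample was at least 3 times the lowest for 14 and 12 genes. In 23132/87 these included the adhesion receptor CD44 (14.2, 82.6 and 80.96), GAST, which encodes gastrin (34.6, 12.3 and 6.18), the aldo-keto reductase AKR1B10 (28, 128 and 91.4), KRT17 (550.2, 207 and 127), the myosin light chain MYL9 (51.6, 21.3 and 13.7) and PSCA (451, 292 and 149.9). Replicate 1 was the sample apart in CD44 and AKR1B10, where it was low, and the highest in GAST, KRT17, MYL9 and PSCA. In SW48 they included the secreted proteins LCN2 (50.5, 4.67 and 70.9), SLPI (16.4, 2.59 and 27.4) and GDF15 (23.5, 5.396 and 18.2), and replicate 2 was the lowest in each of these 3. The genes of this paragraph were chosen by their spread after the values were seen.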

How the data were processed

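Per the labels' protocols, libraries of 3 vehicle cultures of each line were prepared with a TruSeq kit for stranded mRNA, and the labels also gave the groups. The submitters' processing notes list FastQC, STAR and GRCh38 without versions. What counted the reads, whether by strand, and in which unit is not given in the sources used here. For each line the authors deposited 1 table of expression signal, which resembles FPKM or TPM and shows no steps of whole reads, so depth is unknown. The 2 tables were filtered separately by the authors, with lowest deposited signals of 1.00139 and 1.00003, and were set side by side here without rescaling, so levels between lines assume that both were made alike.

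Genes were matched by symbol. limma 3.58.1 in R 4.3.3 tested log2(signal + 1), SW48 minus 23132/87, with a mean-variance trend, no covariate, a mean of at least 1 over the 6 samples and Benjamini-Hochberg adjustment over all 10264 genes (threshold 0.05), after the code was tested on simulated data. A difference on this scale understates the change of low genes. The labels call the replicates biological without naming separate cultures, so p values measure the spread between these samples.

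Members and the 36 gene lists were chosen with earlier results of these data known. Named are the 12 genes with the largest called difference in each direction (mean of at least 10 in the higher line), the 12 highest listed for each line only, the 2 called members with the largest difference in each direction and up to 3 listed for 1 line only from each gene list, and always ROCK1, ROCK2, CDX2, HNF4A, EGFR, ERBB2, MET, CTNNB1, MYC, CDH1, AHR, ATF4, DDIT3 and HSPA5. Some further genes that the rule picks are not reported here. Mitochondrial, histone and ribosomal pseudogenes and small RNA genes were left out of the first 2 groups. Other genes named were chosen after their values were seen. Positions are from GENCODE 29, which matched 12253 of 12372 genes, and promoters from RefSeq (GRCh38.p14). Alternatives covered pseudocount, filters, scaling, the trend, a minimum difference, the identifier used for matching, a replicate block and leaving out each sample.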

Additional observations from a re-analysis of the deposited data

How the results depend on the processing

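The number of called genes, 5804, lay between 5785 and 5813 in alternatives of pseudocount, scaling, trend and matching. These were a pseudocount of 0.1 or 5, median centring, quantile normalization, rescaling to one sum without mitochondrial pseudogenes, no trend, and matching by Ensembl identifier. Leaving out the filter on the mean could change nothing, since no deposited signal was below 1. The number called was 4189 for genes of at least 10 in at least 3 samples, and 5053 to 5513 when 1 sample was left out. Tested against a minimum difference of 1 (limma's treat), 641 genes passed, of which 42.1% were higher in SW48, against 53.4% of all called genes. Whether the replicate numbers pair the samples is not settled by the values. Deviations of same-numbered samples correlated at 0.25, -0.08 and 0.25, and those of differently numbered samples between -0.41 and 0.24. With the replicate number as a block 6080 genes were called. The naming rule picks called genes apart from those always named, and of 134 named genes tested 131 were called. The filter of at least 10 in at least 3 samples left 121 of these to test, all called there, and 10 with no value. Apart from that filter and the minimum difference, 124 kept the call in each of these alternatives, and the other 7 were CTNNB1, CDH1, ALDH3A1, B4GALNT3, FAS, PMAIP1 and CDKN1A, and none of the 134 changed sign. ROCK2 and MET, not called, passed in 2 settings and in 1. Genes listed for 1 line only with a mean of at least 5, not 10, numbered 328 for 23132/87 and 465 for SW48. With only genes of at least 10 in at least 3 samples, the medians of chromosomes 14, 8 and 20 were 0.25, -0.56 and -0.64. Of 96 list counts and medians, 25 moved under at least 1 alternative other than the minimum difference, and a further 13 when genes in the shifted windows of 20 Mb were left out, an alternative chosen after seeing the data. The cause was not tested. In the BMP and TGF-beta list the median was -0.07 with quantile normalization and -0.23 with the filter of at least 10, against 0.10. In the list of other receptor tyrosine kinases it was -0.05 and -0.38, against 0.14. Read depth is unknown, so no limit of detection can be given.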
